A study of Mus musculus with 3 samples.

Results

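The nuclear genes of the mitochondrial respiratory chain were examined in CD4+ effector memory T cells of the mouse. Members were the genes annotated as protein_coding in GENCODE M21 whose symbol begins with Nduf, Uqcr, Cox4 to Cox8 or Atp5, together with Sdha, Sdhb, Sdhc, Sdhd, Cyc1 and Cycs. The rule used names and gene types and no measured value, and it found 96 of the 55536 genes in the headed gene tables. They carry 95 symbols, because Atp5o is annotated as a pair of overlapping genes. The donor was a single adult C57BL/6J male aged 7 months (1 mouse), and polyadenylated RNA of its alpha-beta CD4+ effector memory cells was sheared and kept as fragments of 100 to 300 bp. There are 3 libraries, which the labels number as repeats 1, 2 and 3 of the same biological sample, so there is 1 group and no further condition. Every SD and p-value below therefore measures technical spread between libraries of 1 animal.

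The respiratory chain of the inner mitochondrial membrane passes electrons from NADH (complex I) and succinate (complex II) through ubiquinone, complex III and cytochrome c to oxygen at complex IV, and the proton gradient this builds drives ATP synthase (complex V). The mitochondrial genome encodes a few core subunits of complexes I, III, IV and V, and all other subunits are made from nuclear genes and imported. Memory T cells are known for relying on mitochondrial respiration, and several complex IV subunits have a second form made mainly in heart and muscle, lung, brown fat or testis.

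Libraries 1, 2 and 3 held 16251564, 14878641 and 14152590 counts over all genes. All 9 alpha-beta T cell markers and all 5 effector memory markers listed had a mean of 1 TPM (a transcript level scaled for length and library size) or more, and their levels summed to between 9958 and 10855 TPM and between 4164 and 4701 TPM per library. Summed levels of listed markers of B cells (0.83 to 1.46 TPM), NK cells (0 to 0.16), myeloid cells (0.81 to 1.82), smooth muscle and pericytes (0.41 to 1.57), brown fat (0 to 0.25), lung epithelium (0 to 0.16) and testis (0.14 to 0.7) were low in every library. The sums were 3.34 to 5.14 TPM for CD8 T cells, 1.71 to 6.84 for red cells, led by Hbb-bs, and 4.89 to 6.04 for muscle, led by Tnnt3.

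The members took 0.649% of gene counts in library 1 (95% exact interval 0.645 to 0.653), 0.644% in library 2 (0.64 to 0.648) and 0.659% in library 3 (0.655 to 0.663), that is 0.651% ± 0.00779 (SD, n = 3). As a share of transcripts they took 1.4% ± 0.00525 of all TPM. These intervals cover counting error only, and in RNA from a bulk cell sort fewer cells and less RNA per cell cannot be told apart. Of the 96 members, 88 (91.7%) reached 1 TPM in every library, against 45.5% of all 22028 protein-coding genes. A mean of 100 TPM or more was reached by 51 members (53.1%), against 7.82% of protein-coding genes. The median member stood at 105, 113 and 107 TPM in libraries 1, 2 and 3. The members lie on 19 chromosomes, with at most 9 on 1 chromosome (chromosome 7), 3 on the X and none on the Y.

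**Figure D1:**
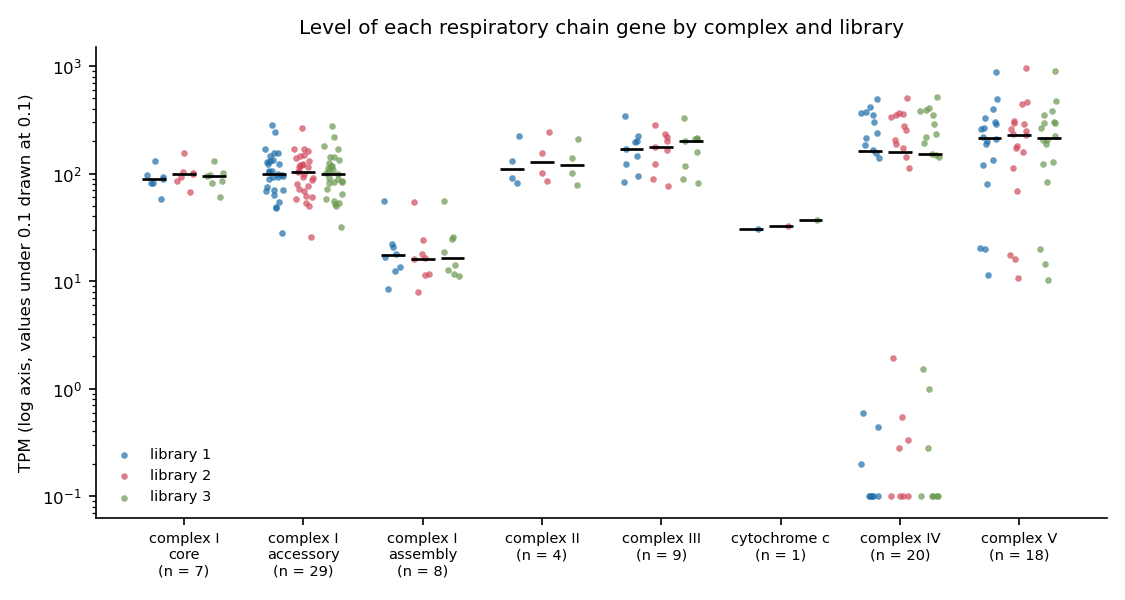
Deposited TPM of every member (log axis) by complex and library, with 1 point per gene and a black bar at the median of each library. The 8 complex IV genes at the bottom had fewer than 30 counts in all, and the assembly factors of complex I lie below nearly all subunits. Values under 0.1 TPM are drawn at 0.1.

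ATP synthase had the highest median of the complexes when all annotated members were counted. Its 18 genes had a median of 215, 231 and 215 TPM in the 3 libraries (220 ± 9.05 TPM). Complex III (9 genes) followed at 171, 177 and 199 TPM, complex IV (20 genes) at 162, 158 and 151 TPM, and complex II (4 genes) at 111, 128 and 120 TPM. The medians of these 4 complexes did not overlap between libraries. The 29 accessory subunits of complex I had medians of 98.4, 104 and 99.7 TPM and its 7 core subunits 89.6, 98.9 and 94.2 TPM, ranges that overlap, so their order is within the spread. The lowest class was the 8 complex I assembly factors, at 17.4, 16.2 and 16.4 TPM. The position of complex IV rests on its silent forms. Over its 12 genes with 30 counts or more the median was 266 ± 3.89 TPM, above that of complex V. Counting only transcripts annotated as coding, again over all 20 complex IV genes with the silent forms included, moved the complex IV median to 43.5 TPM. The medians became 133 TPM for complex V, 127 for complex III and 110 for complex II. For complex I they became 59.8 TPM for the accessory and 58.1 for the core subunits. The coding median of the 12 complex IV genes with 30 counts or more was not taken. This alternative was added after the data were seen.

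Within complex I the flavin and iron-sulfur core varied little. Ndufs7, an iron-sulfur subunit next to the quinone site, was the highest core gene at 130, 156 and 131 TPM. Ndufv2, an iron-sulfur protein of the NADH-oxidising part, stood at 93.3, 102 and 101 TPM, and Ndufs8 at 96.5, 85.2 and 94.2 TPM. Ndufs1, the largest iron-sulfur subunit, was the lowest core gene at 58.5, 68 and 60.9 TPM, and its libraries did not overlap with those of the other core genes just named. Core genes thus spanned only from 62.5 to 139 TPM in their means.

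The accessory subunits of complex I, which surround the core and are needed for its assembly and stability, ranged more widely, from 28.4 to 276 TPM in their means. Ndufa3 was the highest at 285, 265 and 277 TPM. Ndufa6, a subunit of the LYR protein family, followed at 245, 170 and 217 TPM, low in library 2, and Ndufa7 at 168, 170 and 182 TPM. The lowest, Ndufb4, was listed at 27.8, 25.9 and 31.7 TPM, but it has a near-identical copy, described further on. All 29 accessory genes reached 10 TPM in every library.

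Assembly factors bind complex I only while it is being built. The highest of the Ndufaf genes, Ndufaf8, stood at 55.1, 54.3 and 55.3 TPM. Ndufaf4 (20.9, 24 and 25.6 TPM) and Ndufaf3 (22.2, 18 and 24.8 TPM) overlapped between libraries. Ndufaf6 was the lowest by its mean, at 8.38, 7.94 and 12.8 TPM, but in library 3 it stood above Ndufaf1 (11.1 TPM) and Ndufaf2 (11.75 TPM). No assembly factor reached a mean of 100 TPM, against 16 of the 36 core and accessory subunits.

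Succinate dehydrogenase (complex II) is the one complex with no mitochondrially encoded subunit. Sdha, its flavoprotein, stood at 224, 245 and 208 TPM, and Sdhb, its iron-sulfur subunit, at 131, 154 and 139 TPM. The membrane anchors were lower, Sdhc at 91.8, 101 and 101 TPM and Sdhd at 82.5, 84.7 and 77.7 TPM. The order Sdha, Sdhb, Sdhc, Sdhd held in each of the 3 libraries, and no neighbours in it overlapped.

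In complex III the highest gene was Uqcrh, the hinge protein near cytochrome c1, at 342, 282 and 331 TPM. Uqcr10 (225, 217 and 211 TPM) and the core protein gene Uqcrc1 (198, 234 and 209 TPM) overlapped. Uqcr11 was the lowest by its mean, at 94.3, 76.2 and 81.1 TPM, and overlapped with the core protein gene Uqcrc2 (82.8, 88.5 and 88.2 TPM). Cycs, which encodes the mobile electron carrier cytochrome c, was listed at 30.6, 32.65 and 36.9 TPM, under every gene of complexes II and III.

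Complex V spanned the widest range among expressed members. Atp5b, the catalytic beta subunit, was the most abundant member of all at 872, 952 and 901 TPM, from 13384, 12880 and 11830 estimated counts. Atp5h, a peripheral stalk subunit, stood at 492, 459 and 476 TPM and the alpha subunit gene Atp5a1 at 398, 447 and 384 TPM. Atp5b exceeded the others without overlap. The alpha and beta subunits enter the enzyme in equal numbers. The deposited transcript levels differed, with Atp5a1 at 410 ± 33 TPM and Atp5b at 908 ± 40.6 TPM. The size of this difference depends on how reads were counted. Estimated counts summed to 25264 for Atp5a1 and 38092.5 for Atp5b. The second deposited gene table, described further on, held 8370 and 8787. Neither kind of count is scaled for length.

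The 3 genes of the membrane c subunit (Atp5g1, Atp5g2 and Atp5g3) encode the same mature protein behind different import sequences. Atp5g3 took 60.8%, 60.7% and 62% of their summed TPM in the 3 libraries, Atp5g1 37.1%, 37.1% and 36.2%, and Atp5g2 2.08%, 2.22% and 1.81%. Atp5g2 is thus listed as the lowest complex V gene at 11.3, 10.8 and 10.3 TPM, with a deposited uncertainty of assignment of up to 64% of its count. Of the pair of Atp5o genes on chromosome 16 (GRCm38), ENSMUSG00000022956.11 (chr16:91925214-91931687) held 87.9% ± 1.96 of their TPM and ENSMUSG00000116933.1 (chr16:91684398-91926982) held 12.1% ± 1.96, with an uncertainty of assignment of up to 34.6%. Overlapping rows like these cannot be separated with confidence.

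The silent members numbered 8. They had fewer than 30 counts over the 3 libraries, and all 8 are second forms of complex IV subunits or, in Ndufa4l2, of a subunit now counted with complex IV. Cox4i2, the form known from lung and from low oxygen, had 3, 2 and 0 counts. Its partner Cox4i1 stood at 496, 505 and 517 TPM and took 99.9% ± 0.0459 of the pair's TPM. Cox6a2, a heart and skeletal muscle form, had 0, 3 and 0 counts, whereas Cox6a1 stood at 376, 349 and 392 TPM. Cox7a1, also a muscle form, had 0, 0 and 3 counts, whereas Cox7a2 stood at 167, 173 and 153 TPM.

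The testis forms were similarly low. Cox6b2 had 2, 7 and 6 counts, which left Cox6b1 (365, 334 and 379 TPM) with 99.6% ± 0.209 of the pair. Cox7b2 had 1, 0 and 0 counts against 157, 144 and 149 TPM for Cox7b, and Cox8c had 0, 1 and 1. Cox8b, known from muscle and brown fat, had 0 counts in every library, whereas Cox8a stood at 414, 365 and 405 TPM. Ndufa4l2, known from low oxygen, also had 0 counts, against 239, 253 and 232 TPM for Ndufa4. The testis cytochrome c gene Cyct, which is outside the rule, had 0, 0 and 3 counts. In all of these pairs the broad form was above the second form in each library. A count of 0 allows up to 3 counts, which is 0.185, 0.202 and 0.212 CPM in libraries 1, 2 and 3. Cox7a2l, a relative of Cox7a2, was no silent form, at 138, 113 and 143 TPM.

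**Figure D2:**
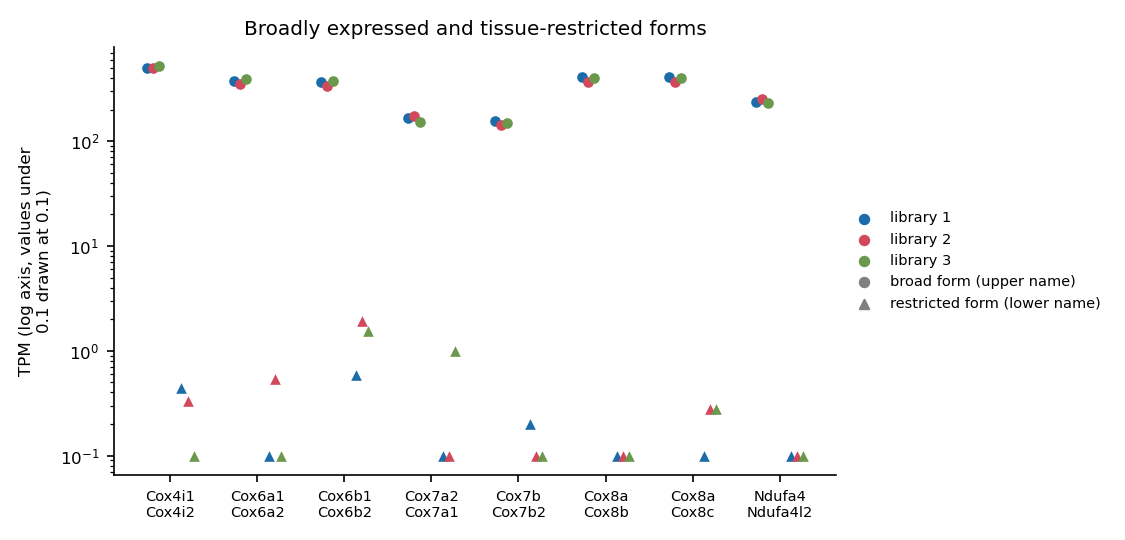
TPM (log axis) of the broadly expressed form (circles) and the restricted form (triangles) of 8 complex IV pairs in each library. All circles lie above 100 TPM and all triangles below 2 TPM, with values under 0.1 drawn at 0.1.

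Promoter sequences were taken from RefSeq (GRCm38.p6), using for each gene the start nearest to its leading transcript. A window of 300 bases was found for 78 of the 96 members. The 250 bases before the start are shown for 3 pairs of forms, 5′ to 3′ on the gene's strand, with every CG in capitals, because they show how much the pairs differ in CG content. At most 27 bases of any window printed are exonic in GENCODE M21.
Cox7a2 (chr9:79759854-79760103, minus strand): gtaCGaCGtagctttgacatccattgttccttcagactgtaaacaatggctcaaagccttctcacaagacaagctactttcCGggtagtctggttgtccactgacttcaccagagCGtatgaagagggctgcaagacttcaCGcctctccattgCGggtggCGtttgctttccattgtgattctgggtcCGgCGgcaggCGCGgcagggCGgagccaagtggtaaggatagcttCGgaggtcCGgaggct
Cox7a1 (chr7:30183921-30184170, plus strand): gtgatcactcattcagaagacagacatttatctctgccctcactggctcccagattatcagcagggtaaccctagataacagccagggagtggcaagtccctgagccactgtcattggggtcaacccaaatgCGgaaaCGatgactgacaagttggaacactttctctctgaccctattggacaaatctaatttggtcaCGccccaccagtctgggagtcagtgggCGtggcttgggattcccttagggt
Cox8a (chr19:7217617-7217866, minus strand): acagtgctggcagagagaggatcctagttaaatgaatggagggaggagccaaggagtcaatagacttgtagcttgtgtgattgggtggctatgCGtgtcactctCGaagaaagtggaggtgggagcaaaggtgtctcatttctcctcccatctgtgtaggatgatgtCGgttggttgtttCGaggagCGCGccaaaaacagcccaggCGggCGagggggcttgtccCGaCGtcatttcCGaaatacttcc
Cox8b (chr7:140900447-140900696, minus strand): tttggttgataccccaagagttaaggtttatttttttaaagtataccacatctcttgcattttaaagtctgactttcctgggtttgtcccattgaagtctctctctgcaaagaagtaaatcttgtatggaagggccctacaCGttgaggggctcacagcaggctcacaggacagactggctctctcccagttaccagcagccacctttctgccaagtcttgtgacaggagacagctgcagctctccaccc
Cox7b (chrX:106015450-106015699, plus strand): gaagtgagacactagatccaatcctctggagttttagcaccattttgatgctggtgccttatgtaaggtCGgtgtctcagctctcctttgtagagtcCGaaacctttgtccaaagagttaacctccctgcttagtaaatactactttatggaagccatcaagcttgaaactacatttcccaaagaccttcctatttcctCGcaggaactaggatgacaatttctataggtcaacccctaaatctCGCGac
Cox7b2 (chr5:71548206-71548455, minus strand): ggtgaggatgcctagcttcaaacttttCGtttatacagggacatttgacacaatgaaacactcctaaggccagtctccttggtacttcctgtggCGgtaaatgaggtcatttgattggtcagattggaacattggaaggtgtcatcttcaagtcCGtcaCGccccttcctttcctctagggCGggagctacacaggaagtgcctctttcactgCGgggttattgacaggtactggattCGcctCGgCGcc
Cox7a2 has 14 CG in these 250 bases and Cox7a1 has 4, and Cox8a has 11 and Cox8b has 1. The third pair goes the other way, with 5 CG for the expressed Cox7b and 9 for the silent Cox7b2. Over the full 300 bases the median was 20 CG for the 74 members with a window and 1 TPM or more in every library, and 8.5 for the 4 members with a window and fewer than 30 counts. It was 14 for 16914 protein-coding promoters and 22 for the 8092 whose gene reached 1 TPM in every library. CG content of the expressed members was thus close to that of other expressed genes.

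NRF1, the ETS factor GABP and YY1 are textbook regulators of nuclear respiratory genes, and simple forms of their motifs were searched on both strands, with overlapping matches counted once per promoter. The NRF1 letters (GCGCA, any base, GCGC) were found in 19 of the 74 promoters of expressed members (25.7%), against 6.74% of all protein-coding promoters of the same length and 12.1% of those of expressed genes. The YY1 letters AAGATGGC were found in 11 (14.9%), against 3.26% and 5.56%. The ETS letters CCGGAAG were found in 18 (24.3%), against 12.3% and 21.7%, and at least 1 of these 3 motifs in 41 (55.4%), against 20% and 34.9%. SP1 letters (GGGCGGG) were found in 25 (33.8%), against 35.4% and 50.2%, the CRE letters TGACGTCA in 5 (6.76%), against 2.41% and 3.63%, and TATAAA in 5 (6.76%), against 13.1% and 6.44%. None of the 4 silent members with a window held the NRF1, ETS or YY1 letters, nor did Cox7a2 or Cox7b, which are expressed. Matches are descriptions of the letters and not of binding. The following 250 bases, with matches in capitals, show an NRF1 match beside an SP1 match (Ndufaf4), an NRF1 match alone (Ndufs5) and an ETS match (Uqcr11).
Ndufaf4 (chr4:24897833-24898082, plus strand): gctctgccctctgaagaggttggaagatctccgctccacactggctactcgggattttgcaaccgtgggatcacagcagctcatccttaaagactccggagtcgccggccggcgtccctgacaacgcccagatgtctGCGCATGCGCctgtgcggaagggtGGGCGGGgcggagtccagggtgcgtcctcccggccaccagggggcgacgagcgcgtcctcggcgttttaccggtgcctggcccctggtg
Ndufs5 (chr4:123718187-123718436, minus strand): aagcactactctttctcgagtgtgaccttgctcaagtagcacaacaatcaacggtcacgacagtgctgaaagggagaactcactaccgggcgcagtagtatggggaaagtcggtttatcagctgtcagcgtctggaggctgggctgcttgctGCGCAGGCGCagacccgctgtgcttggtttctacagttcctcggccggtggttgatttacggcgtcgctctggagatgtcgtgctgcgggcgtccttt
Uqcr11 (chr10:80406822-80407071, minus strand): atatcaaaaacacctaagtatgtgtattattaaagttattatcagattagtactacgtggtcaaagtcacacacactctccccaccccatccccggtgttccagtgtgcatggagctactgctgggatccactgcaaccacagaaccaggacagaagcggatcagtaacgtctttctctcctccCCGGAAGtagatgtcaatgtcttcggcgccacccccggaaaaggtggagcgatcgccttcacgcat

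Near-identical copies elsewhere in the genome, most of them processed pseudogenes made by reverse transcription of the mRNA, decide how far some levels can be read. A copy was counted where at least 180 bases of a coding or leading transcript matched another gene's transcript on the same strand at 95% identity or more. Of the 88 members with 30 counts or more, 25 had at least 1 such copy, and 11 had a copy that itself was given 30 counts or more. Estimated counts share ambiguous reads between a gene and its copies by a model.

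Atp5g2 was the extreme case. The transcribed pseudogene Gm10175 (chr7:23946646-23947290) matched it at 100% over 645 bases and was given 1208, 775 and 1029 counts, against 72.4, 63.9 and 60.6 for Atp5g2. Summed with its copies, Atp5g2 would stand at 215, 158 and 223 TPM in place of 11.3, 10.8 and 10.3. For Cycs, Gm10053 (chr19:24875686-24876631, protein_coding in GENCODE M21 and a pseudogene in RefSeq) matched at 99.9% over 946 bases and was given 1307, 1256 and 1197 counts against 478, 511 and 517. With Gm10053 and Gm10108, Cycs would stand at 352, 337 and 325 TPM in place of 30.6, 32.65 and 36.9. These sums add each copy's TPM, scaled to the copy's own length, as if all of it were the member's, and are upper ends. Gm10108 matched Cycs over 319 bases, whereas the mean length of Cycs was 1692.55 bases. Its reads would weigh less at the length of Cycs. By summed TPM alone, Cycs would stand above the highest complex III gene, Uqcrh, in libraries 1 and 2. In library 3 it would stand below (325 against 331 TPM). Whether this order holds with reads reassigned was not tested.

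Ndufb4 shared 390 identical bases with Ndufb4c (chr15:73809507-73809896), which GENCODE M21 lists as a processed pseudogene and RefSeq as protein_coding. Ndufb4c stood at 91.7, 84.5 and 94.7 TPM, above Ndufb4 in each library. By summed TPM, Atp5l (with Gm10221 and Gm4045), Cox7c (with Gm12338 and Gm10012) and Ndufa12 (with Gm15920) would rise 2.47-fold, 2.87-fold and 1.92-fold. Short copies again weigh more in such sums: Gm12338 matched over 192 bases, against a mean length of 437 bases for Cox7c. The other 5 members of the 11 (Ndufab1, Atp5g1, Cox5b, Atp5f1 and Atp5h) would rise at most 1.17-fold.

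The second deposited gene table, whole-number counts on GENCODE M4, treated these genes differently. It held a median of 18.5% of the estimated counts for the 24 members with a copy that it lists, and 49.9% for the 63 without one. The median over all 11483 tested genes it lists was 50.7%. Below 5% were 5 members, all with copies, namely Atp5g1 (4, 16 and 10 counts against 1123, 894 and 1020 estimated), Cycs (5, 3 and 7), Atp5l (14, 7 and 8), Ndufab1 (14, 14 and 13) and Cox7c (21, 29 and 27). Of all tested genes 4.55% fell below 5%. No member without a copy was under 14.2%.

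**Figure D3:**
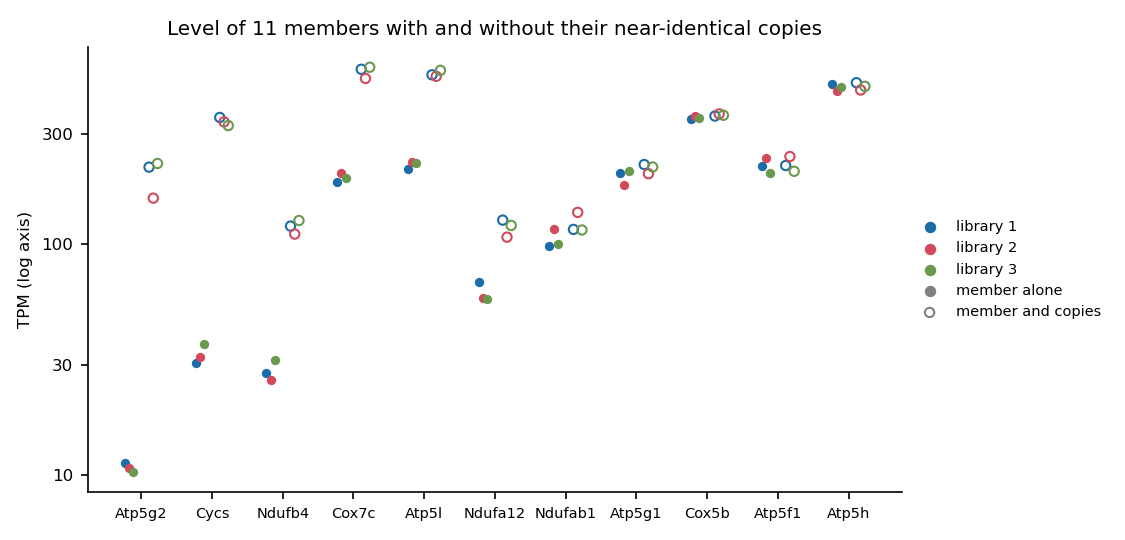
TPM (log axis) of the 11 members whose near-identical copies were given 30 counts or more, alone (filled) and summed with the copies (open), in each library. Atp5g2 moves 18.4-fold and Cycs 10.1-fold, and the 5 members at the right of Ndufa12 move at most 1.17-fold.

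At the transcript level, much of the members' signal was assigned to transcripts that GENCODE does not annotate as coding. Coding transcripts took 71.6%, 69.4% and 71.2% of the TPM of the 88 members with 30 counts or more, against 77.1%, 77.2% and 76.8% for 11467 tested protein-coding genes. Processed transcripts took 11.9% ± 0.541 in the members and 6.13% ± 0.0671 in all. The shares of retained introns (13.2% ± 0.588 against 12.2% ± 0.112) and of transcripts marked for nonsense-mediated decay (4.15% ± 0.109 against 4.61% ± 0.0284) were closer. The leading transcript was a coding one in 65 of the 88 members (73.9%) and in 83.5% of all tested protein-coding genes.

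Short transcripts led in several of the named members. For Cox7a2, Cox7a2-203, a processed transcript of 477 bases, took 89.2%, 89.6% and 86.7% of the gene's TPM. Ndufa3-204, marked for decay, took 86.5%, 86.8% and 87.6% of Ndufa3. Ndufb4-202, a retained intron transcript, took 80.3%, 78.5% and 88.5%, and Cox7b-203, of the same type, 71.8%, 76.3% and 85.6%. Uqcrh-205, again a retained intron, took 57.4%, 58.4% and 61.2%, and Cycs-201 59.9%, 51.9% and 58.8%. Cox8a-201, a coding transcript, took 99.1%, 100% and 97.7%, and Cox6a1-201 92.2%, 90.2% and 92.5%. The median share of the leading transcript over the 34 members named by rule with 30 counts and several transcripts was 74.5% ± 1.51. How reads of these short, overlapping transcripts were divided was not tested.

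The libraries were compared gene by gene with a chi-square test of the rounded estimated counts, divided by the median inflation over all genes (6.04) and adjusted by the Benjamini-Hochberg method over 13949 genes. No member passed among the 88 tested, against 3.84% of all genes tested. In all, 5 of 88 members had an unadjusted p under 0.05 in this chi-square test, as did 1315 of 11467 tested protein-coding genes. With a variance from edgeR's common dispersion 0 members passed as well, against 4.34% of all genes. Without the correction, which compares the libraries with counting noise alone, 41 members (46.6%) passed, against 54.7%. Among genes with 1000 counts or more, 0 of 71 members passed the corrected test, against 7.67% of all. Missing this threshold does not show that levels were equal.

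The widest member was Ndufa6. Its scaled level was 1.42 times higher in the highest library (1) than in the lowest (2), with an adjusted p = 0.177 in the chi-square test. Cox7a2l, at 1.31-fold and an adjusted p = 0.278, was lowest in library 2 too. The median ratio of the highest to the lowest library was 1.15 over the 88 members and 1.23 over all tested protein-coding genes, and the median coefficient of variation of TPM was 7.17% and 11.8%. Both measures depend on depth. Of the 88 members 71 held 1000 counts or more, against 6558 of all 13949 tested genes, and neither measure was taken at matched depth. Atp5b differed by 1.05-fold between its extreme libraries.

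Many members stood slightly lower in library 2, which also stood apart over all genes. Without it 33 genes passed the chi-square test, against 342 without library 1 and 377 without library 3. With all 3 libraries 535 passed. On scaled counts, the median member stood 0.04 above the mean of the other libraries (log2) in library 1, -0.04 in library 2 and 0.04 in library 3, against medians of -0.0073, -0.0089 and -0.0023 over all tested genes. The whole-number counts of the second table gave -0.0094, -0.0837 and 0.0831 for the members, and without library 2 the medians of libraries 1 and 3 were -0.0055 and 0.0055, so the sign in library 1 did not hold. Library 2 was the lowest library for 45 of the 88 members, library 1 for 24 and library 3 for 19. Over the 11467 tested protein-coding genes these counts were 3967, 3638 and 3862. Cox and Atp5 genes shifted most, with medians of -0.15 for the 12 tested complex IV genes and -0.13 for the 18 complex V genes. Complex I core subunits (0.08) and complex II (0.07) were shifted up in library 2. These classes also differ in transcript length. Under 750 bases were 11 of the 12 complex IV and 12 of the 18 complex V genes. Only 1 of the 7 complex I core and 0 of the 4 complex II genes were that short. Of the 29 accessory subunits of complex I, 23 were under 750 bases, with a median shift of -0.06. Whether class matters apart from length was not tested.

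In library 2 the shift differed between short and long genes. Members have short transcripts, with a median mean length of 658 bases against 2194 for all tested genes, and 61.4% of them, against 8.75%, are under 750 bases. In library 2 the median shift was -0.08 for the 20 members under 500 bases, -0.11 for the 34 of 500 up to 750 bases and 0.01 for the 34 of 750 bases or more. Over all tested genes it was -0.21, -0.12 and 0.0024 in the same lengths. Across the 88 members the Pearson correlation of the library 2 shift with log2 length was 0.35, as a description over genes that share the same libraries. Over all 13949 tested genes, nearly all of them longer, the same correlation was -0.0069. With the trend on length taken out of each library, the median member shift of library 2 was 0.02.

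**Figure D4:**
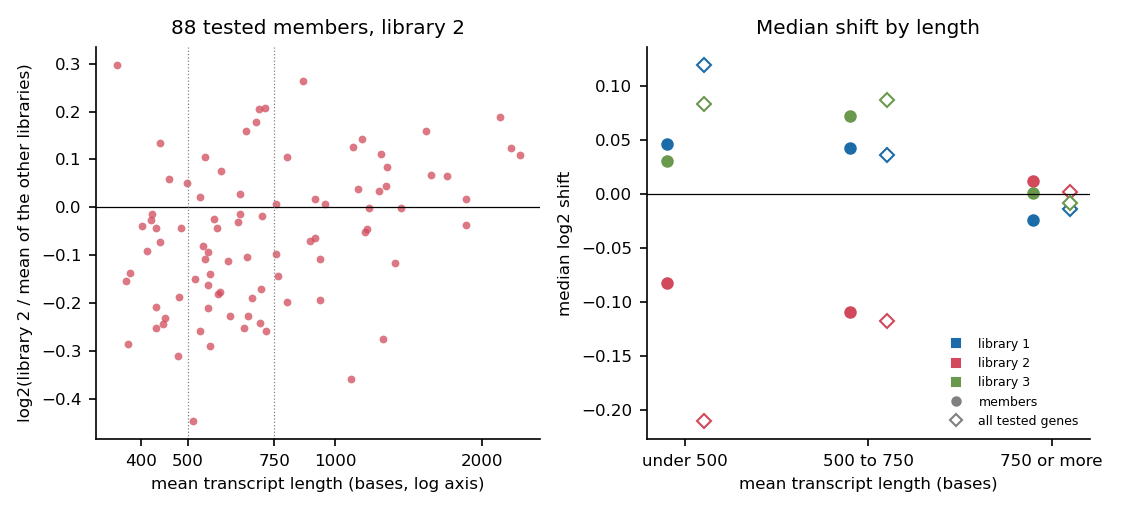
Left, log2 shift of library 2 against the other libraries for the 88 tested members by mean transcript length (log axis, dotted lines at 500 and 750 bases). Right, median shift by length for members (filled circles) and all tested genes (open diamonds) in each library, where library 2 lies lowest under 750 bases in both.

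In each library the median TPM of the mitochondrially encoded subunits of complexes I, IV and V was above that of their nuclear partners. The same held for mt-Cytb, the only such subunit of complex III. All 13 mitochondrially encoded genes were present, from 158 TPM (mt-Nd3) to 7029 TPM (mt-Co3) in their means. In the chi-square test 9 of 13 passed, beside 3.84% of all genes and 7.67% of those with 1000 counts or more, and 8 of the 9 were lowest in library 2. The 9 held from 9918 (mt-Nd2) to 165269 (mt-Co1) counts, and no share was taken among genes of like depth. How many of all genes that passed were lowest in library 2 was not counted. With the dispersion-based variance none of the 13 passed, as none of the nuclear members did. Genes that passed did not always differ more: mt-Co3 and mt-Cytb, which passed, differed 1.12-fold and 1.14-fold between extreme libraries, whereas Ndufa6, which did not, differed 1.42-fold. Whether mitochondrial and nuclear genes differ in their spread was not tested. The genes that passed are the following. The ATP synthase subunit mt-Atp6 stood at 5056, 3695 and 5681 TPM. The oxidase core genes mt-Co1 and mt-Co3 stood at 4270, 3580 and 4127 TPM and at 7244, 6672 and 7171 TPM. Cytochrome b, mt-Cytb, stood at 2263, 2049 and 2196 TPM. For complex I, mt-Nd1 stood at 1614, 1426 and 1612 TPM, mt-Nd2 at 385, 285 and 419, mt-Nd4 at 629, 505 and 640, and mt-Nd5 at 420, 336 and 435. The exception in direction was mt-Co2, at 2631, 3003 and 3586 TPM, lowest in library 1. The deposited uncertainty of assignment was up to 8.51% of the count for mt-Co2, 9.03% for mt-Atp6 and 7.17% for mt-Co3. It was at most 0.253% for the other genes that passed. For mt-Nd3 and mt-Nd4l, which did not pass, it was up to 44.3% and 10.8%. The chi-square test takes the counts as known.

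The 13 mitochondrial genes took 1.42%, 1.2% and 1.48% of gene counts in libraries 1, 2 and 3, whereas the share of the nuclear members moved only from 0.644% to 0.659%. Summed TPM of the mitochondrial subunits was 4.16, 4.06 and 4.34 times that of the nuclear members in complex IV, and 0.99, 0.842 and 1.03 times in complex I. The mitochondrial sum was lowest relative to the nuclear one in library 2 in complexes I, III, IV and V. Mitochondrial messages carry short tails, so levels after polyA selection need not be comparable with those of nuclear genes. The second table lists mt-Co2, mt-Co3, mt-Atp6, mt-Atp8, mt-Nd3 and mt-Nd4l at 0.

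Of the other listed genes of the pathway 62 were found in the annotation. None of the 60 tested passed the corrected chi-square test (3.84% of all genes did), 27 passed without the correction (54.7% of all), and 1 passed with the dispersion-based variance (4.34% of all). Among 20 assembly factors of complex IV, Cox17, a copper chaperone, stood at 202, 188 and 197 TPM, Cox16 at 151, 151 and 151 TPM, and Sco2, the lowest by its mean, at 2.75, 2.31 and 3.35 TPM. The level of Sco2 is uncertain, with 88.6 estimated counts in all against 451 in the second table and an uncertainty of assignment of up to 23%. That of Cox17 is uncertain too, because the second table lists it at 0, 0 and 0 counts, against 1069, 925 and 910 estimated. For Cox16 the second table held 16.3% of the estimated counts. Among assembly factors of complexes II and III, Uqcc2 (60.3 TPM) and Sdhaf2 (46.2 TPM) led and Sdhaf3 (1.49 TPM) was the lowest by its mean. The further complex I assembly factors were led by Acad9 (31.2 TPM) and Foxred1 (25.4 TPM), with Timmdc1 at 2.22 TPM.

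For ATP synthase, the inhibitor gene Atpif1 stood at 74.6 TPM, and the assembly factors Atpaf2 and Atpaf1 at 29.2 and 23.8 TPM. Supercomplex factors Higd2a and Higd1a stood at 111 and 96.3 TPM. Among enzymes that feed electrons to ubiquinone, the electron transfer flavoprotein genes Etfa (83.7 TPM) and Etfb (58.9 TPM) led, and Prodh had a mean of 0.267 TPM. Of the regulators of mitochondrial biogenesis, Gabpb1, a GABP subunit, stood at 191, 208 and 185 TPM. Tfam, which packages mitochondrial DNA and acts in its transcription, stood at 80.7, 73 and 86.8 TPM. The lowest, the coactivator gene Ppargc1a, had 33, 7 and 47 counts. Its adjusted p was 0.602 in the corrected chi-square test and 0.00519 with the dispersion-based variance.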

How the data were processed

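Polyadenylated RNA of 1 mouse was measured in 3 technical libraries. Per the file headers and deposited notes, the authors quantified reads on mm10 with GENCODE M21 as estimated counts (expected counts), TPM, FPKM and isoform percent, with posterior means and standard deviations. The authors also deposited whole-number counts on GENCODE M4. Of the aligner, quantifier and strand setting, names and versions were not given in the sources used.

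The members and lists were chosen with earlier results of these data known. Rows that name no gene, which held 0.1883%, 0.5791% and 0.2396% of counts, were left out. Estimated counts were rounded, scaled by edgeR 4.0.16 TMM and compared between libraries by a chi-square test for genes with at least 30 counts, divided by its median inflation, with Benjamini-Hochberg adjustment at 0.05. The test was checked on simulated data with counting noise alone or with the same inflation for every gene. Spread that grows with the count was not simulated, so the check cannot say how the test behaves there. A shift is the log2 ratio of a library's scaled value, with a pseudocount of 0.5, to the mean of the others. Levels and shares used deposited TPM, with the SD over libraries. Copies were found with blastn 2.17.0. Gene totals of 14152590 to 16251564 set the precision, with a floor of 3 counts. Alternatives were DESeq2 1.42.0 size factors, total counts, other minimum counts, variance models, posterior means, FPKM, the second table and each library left out. Named members were the 3 highest and the lowest of each class, all on the paralog list and all with fewer than 30 counts. From each other list the 2 highest and the lowest were named.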

Additional observations from a re-analysis of the deposited data

Results flagged for a closer look

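A pair of genes outside the rule carried signal above 3 counts in every library, out of 13 genes whose symbols match but which GENCODE M21 does not annotate as coding. Ndufb1-ps, listed as a bidirectional-promoter long noncoding RNA and in RefSeq as the coding complex I gene Ndufb1, had a mean of 155 TPM. Ndufb4c, a processed pseudogene in GENCODE and coding in RefSeq, had a mean of 90.3 TPM. A group of 3 libraries is too small for the check on single outlying values, and there is no other group to compare.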

How the results depend on the processing

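Of 347 alternative values for 104 results, 253 stayed within the spread between libraries and 94 moved beyond it. A level, class median or members' share averaged with 1 library left out cannot leave that spread, so those values could not move. FPKM medians are in another unit than the TPM spread they were set against. No conclusion on robustness is drawn from the tally. No paired analysis was possible because all libraries form 1 group. No member passed the library test under any setting but the uncorrected one, where 41 did, nor with any library left out (0 to 0); without library 2 only 33 of 12904 genes passed in all. The median member shift became -0.0237, 0.0165 and -0.0108 in libraries 1, 2 and 3 with the length trend removed, -0.0237 and 0.0122 in libraries 1 and 2 for members of 750 bases or more, and -0.11 in library 2 for those of 500 to 750. The second table gave -0.0094, -0.0837 and 0.0831. Leaving out 1 library gave -0.01 to 0.05 (library 1), -0.07 to -0.05 (library 2) and 0.01 to 0.07 (library 3). Class medians (complex I core, accessory, assembly, II, III, cytochrome c, IV, V) were 57.2, 61.2, 10.1, 72.6, 111, 20.3, 95.5 and 134 in FPKM, 82.75, 86.9, 15.2, 103, 157, 28.8, 136 and 188 as posterior mean TPM, and 58.1, 59.8, 11.8, 110, 127, 14.4, 43.5 and 133 over coding transcripts only. With 1 library left out they ranged over 91.9 to 96.6, 99.1 to 102, 16.3 to 16.9, 116 to 124, 174 to 188, 31.6 to 34.8, 155 to 160 and 215 to 223 TPM. The members' share was 0.769% of the second table's counts and 1.4% of TPM, 0.646% to 0.654% with a library left out, and 88 to 89 members then reached 1 TPM. By posterior mean TPM the broad form's share was 99.9% for Cox4i1, 99% (98.99) for Cox6b1, 99.8% for Cox7b, 99.9% for Cox8a against Cox8b and 99.9% (99.88) against Cox8c, and 99.8% for Ndufa4, and Atp5g2 took 9.66% beside Atp5g1 and 5.98% beside Atp5g3. By undivided counts Atp5g2 took 6.11% beside Atp5g1, and Cox7a2 35.4% beside Cox7a2l. The median leading-transcript share was 72.7% as a posterior mean. The cause of these moves was not tested. Depth limits the 8 silent members, whose levels rest on 0 to 7 counts a library.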
